A study of Macaca mulatta with 6 samples.

Results

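A recurring arrangement of CpGs, the sites at which mammalian DNA is methylated, was examined in the table of CpG positions deposited for this series. A set was counted wherever 6 consecutive listed CpGs on an autosome were 4, 5, 38, 2 and 4 bases apart, or had the same spacings in reverse order. The search found 28427 such sets among the 25805643 runs of 6 consecutive listed CpGs on the 20 autosomes. The series itself profiled DNA methylation by bisulfite sequencing in peripheral blood mononuclear cells (lymphocytes and monocytes) of 6 adult female rhesus macaques. The labels give 3 animals of high rank (rank 1) and 3 of low rank (rank 5), and name no treatment for either group. The 12 columns of values in the table carry no names that tie them to an animal or a rank, so they were not used. No methylation level, no depth per animal and no comparison of ranks is reported here, and all results concern positions that belong to no single animal.

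As background, a CpG is a cytosine followed by a guanine. Methylated cytosine mutates to thymine more readily than unmethylated cytosine, so CpGs are scarce in most of the genome and are lost over time from sequence that stays methylated in the germline. Primate genomes hold many copies of short, CpG-rich mobile elements, of which Alu elements are the best known, and copies of one element carry CpGs at the same distances from each other. No genome sequence in the coordinates of the table was used, so no set was assigned to a repeat, a gene or a promoter, and no base sequence is shown.

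The 6 CpGs of a set are called places 1 to 6 in the order 4, 5, 38, 2, 4, and reverse matches were flipped so that each place means the same in every set. Places 1, 2 and 3 thus form a cluster at 0, 4 and 9 bases, and places 4, 5 and 6 form another at 47, 49 and 53 bases from place 1. Of the sets, 14263 ran in the listed direction and 14164 in the reverse direction, so that 50.2% were in the listed direction. On single autosomes this share lay between 48.1% and 52.5%. No 2 sets shared a CpG. The sets held 170562 CpGs, or 0.661% of those listed on the autosomes, at 10.5 sets per Mb of span. The counts are complete for the table and have no replicate error, so no test was made and the shares are given as descriptions.

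The CpGs around the sets lay almost entirely on one side. In the 230 bases before place 1 there were 58.5 listed CpGs per kb, against 9.52 per kb over the whole autosomal span. Beyond that stretch the density dropped to 7.42 per kb between 231 and 300 bases before place 1. After the last CpG of the set it was 7.40 per kb between 58 and 100 bases from place 1. Farther out it was 11.5 per kb up to 1000 bases before place 1 and 11.9 per kb up to 1000 bases after it. A set therefore marked one end of a CpG-rich stretch whose other end lay near 230 bases before place 1. The median set had 14 listed CpGs in those 230 bases, with 9 at the 5th and 17 at the 95th percentile and a maximum of 21, and 44 sets had none.

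**Figure D1:**
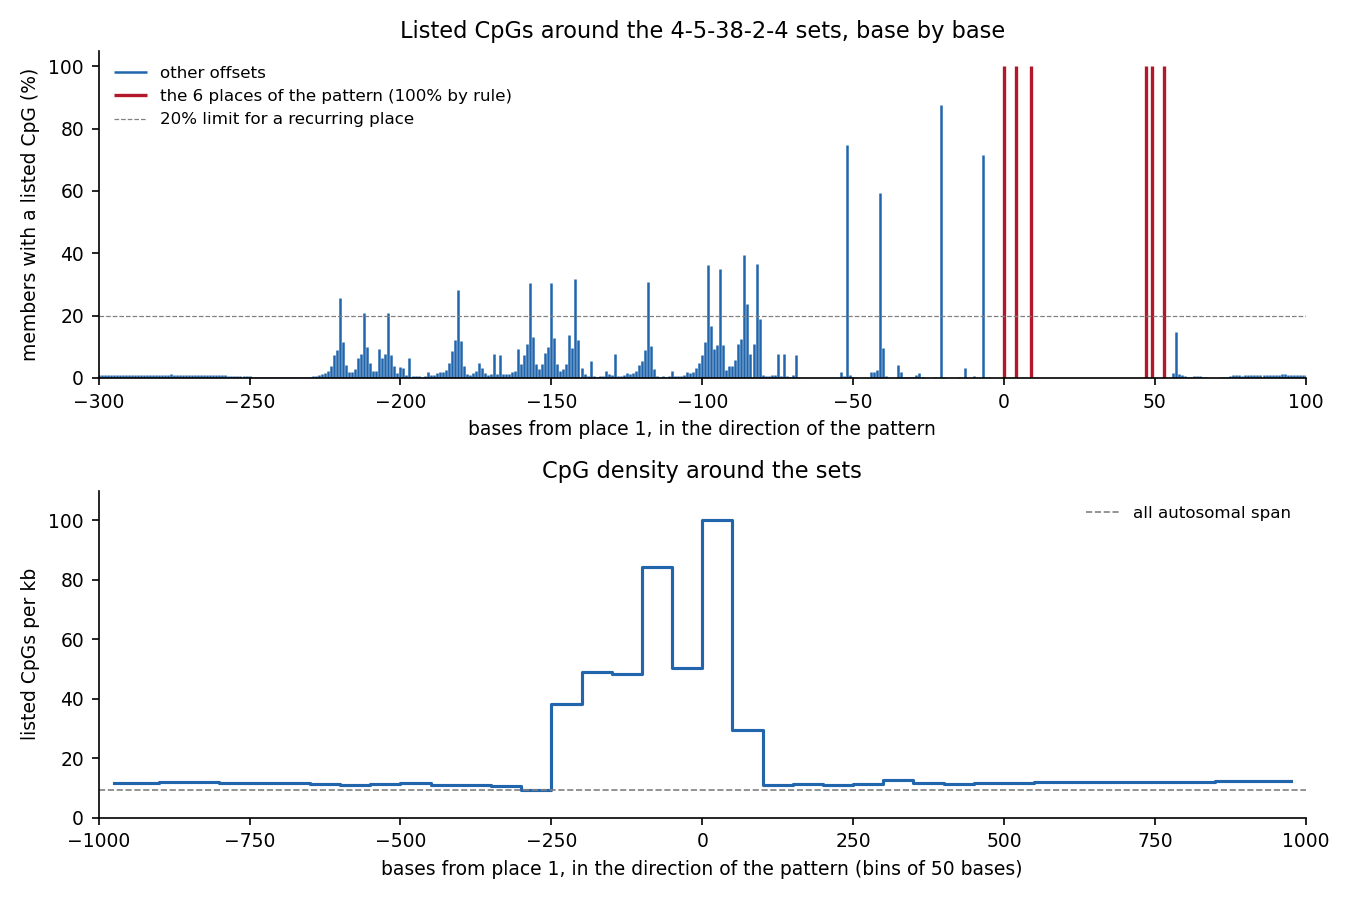
Listed CpGs around the 28427 sets. The upper panel gives the percentage of sets with a listed CpG at each base, from 300 bases before to 100 bases after place 1, and the lower panel gives listed CpGs per kb in bins of 50 bases to 1000 bases on each side; CpGs recurred at fixed distances before place 1, such as 87.5% of sets at 21 bases, and density fell to flanking levels on both sides of the stretch.

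CpGs before place 1 recurred at fixed distances. A base at which at least 20% of the sets had a listed CpG is called a recurring place. There were 17 of these, all before place 1 and none after place 6. The most frequent lay 21 bases before place 1 and was listed in 24877 sets, or 87.5%. Those at 52, 7 and 41 bases before place 1 were listed in 74.7%, 71.5% and 59.5% of sets. No base between 58 and 300 bases after place 1 exceeded 1.51%, so these 4 near places stood far above the surrounding level.

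The recurring places farther out were less frequent. Between 82 and 98 bases before place 1, CpGs were listed at 82 bases in 36.6% of sets, at 86 bases in 39.4%, at 94 bases in 34.9% and at 98 bases in 36.2%. Those at 118, 142, 150 and 157 bases were listed in 30.7%, 31.8%, 30.5% and 30.5% of sets. The farthest lay at 181, 204, 212 and 220 bases, with 28.3%, 20.9%, 20.7% and 25.5%. The base at 85, next to that at 86, also passed the limit, at 23.6%. Since listed CpGs are never adjacent, no set can hold both.

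The near places were listed at much the same share on every autosome. The place at 21 bases ranged from 85.4% of the sets on chromosome 14 to 88.9% on chromosome 11. The place at 7 bases ranged from 69.4% on chromosome 20 to 74.0% on chromosome 14, and that at 52 bases from 71.9% on chromosome 9 to 76.2% on chromosome 6. Sets in the listed and in the reverse direction differed as little, with 87.5% in both at 21 bases and 71.3% and 71.6% at 7 bases.

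The far places were often listed together a few bases off. For each set, the 8 places from 82 to 157 bases were moved together by up to 6 bases either way, and the shift at which most of them were listed was taken if it was unique and reached 4 places. This assigned 22799 sets, or 80.2%. Of those, 46.6% had no shift, 16.3% lay 1 base nearer to place 1 and 13.3% lay 1 base farther. Shifts of 2 and 3 bases away from place 1 made up 8.20% and 5.23%, while shifts of 2 and 3 bases towards it made up 3.08% and 0.386%. Longer distances were thus more frequent than shorter ones beyond a shift of 1 base. In its own register each of the 8 places was listed in 74.9% to 89.2% of the assigned sets. The choice of the best shift raises these shares by itself, so they describe the sets and are no test.

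The number of recurring places at their exact distance fell into a low and a high class. Leaving out the place at 85 bases, 16 places were counted. The median set had 4 of them and the mean was 6.59. There was 1 in 10.3% of the sets, 2 to 4 in 42.6%, 6 to 9 in 9.51% and 11 to 15 in 28.7%, while 303 sets had none. A shift of the far places lowers this number, so a low number does not by itself mean that a set lacks those CpGs. The number was also low in a class of 2103 sets described below. Of these, 96.0% had the place at 21 bases, and each other of the 16 places was listed in at most 0.903%. The nearest listed CpG before place 1 was 7 bases away in 71.2% of the sets and 21 bases away in another 24.7%.

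The near places were listed together to different degrees. Of the sets with a CpG at 41 bases, 87.2% also had one at 52 bases, against 56.2% of the sets without it. Of the sets with a CpG at 7 bases, 83.0% had one at 52 bases, against 53.7% of those without. A class of 2103 sets, described next, mostly lacks the CpGs at 7, 41 and 52 bases and widens these differences. Without that class, a CpG at 52 bases was listed in 68.7% of the sets without one at 41 bases, while the share with one stayed at 87.2%. For the CpG at 7 bases the shares without that class were 83.1% and 72.4%. The place at 21 bases was listed in 87.2% of the sets with a CpG at 7 bases and 88.2% of those without, or 87.2% and 85.5% without that class. All 4 near places were listed together in 10231 sets, or 36.0%.

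A smaller number of sets had a different arrangement of CpGs before place 1. In 2727 sets a CpG was listed at 40 bases and not at 41 bases. This division was made after the values had been seen, and it is described without a test. The sets with a CpG at 40 bases had 13 places beyond 52 bases at which at least 20% of them had a listed CpG. One of these, at 85 bases, is also among the 17 recurring places of all sets. They were searched from 53 to 300 bases before place 1 and lay at 69, 73, 75, 81, 85, 129, 137, 144, 161, 167, 169, 197 and 207 bases before place 1. Counting how many of these 13 were listed split the sets into separate classes. There were 26092 sets, or 91.8%, with 0 to 2 of them and 2024 sets, or 7.12%, with 9 or more, while only 311 sets had 3 to 8.

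The 2103 sets with 6 or more of the 13 places, 7.40% of all sets, are called the second arrangement. Within it 95.6% of sets had a CpG at 73 bases, 94.1% at 69 bases and 95.5% at 129 bases. Among the other 26324 sets these 3 places were listed in 0.589%, 0.463% and 0.760%. Over all 13 places the shares were 66.6% to 95.6% in the second arrangement and 0.406% to 17.9% in the others, where 8 of the 13 were under 1%. The highest shares among the others were those at 85, 81 and 144 bases, which the others had in 17.9%, 13.3% and 7.34%. Conversely, a CpG at 7 bases was listed in 0.666% of the second arrangement and 77.1% of the others, and one at 52 bases in none of the second arrangement and 80.6% of the others. None of the 16916 sets with a CpG at 41 bases belonged to it, while 2018 of the 2727 with one at 40 bases did. The second arrangement was used to choose its own places, so these contrasts describe it and support nothing further.

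**Figure D2:**
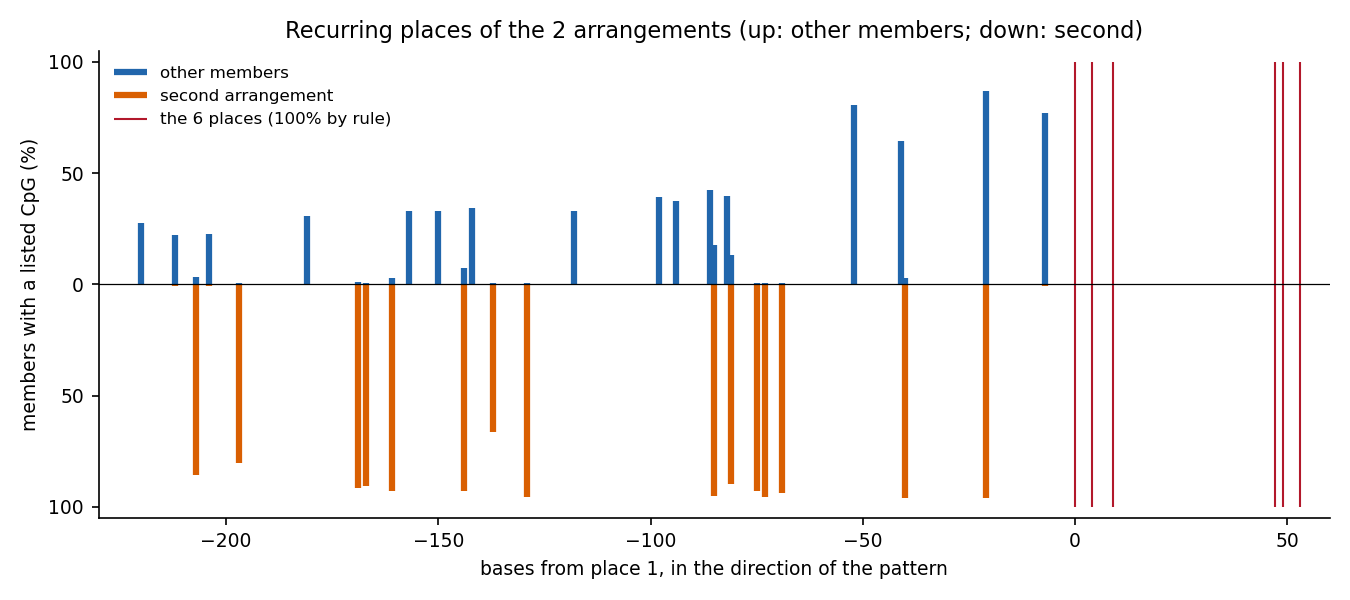
Percentage of sets with a listed CpG at each recurring place, by distance in bases from place 1, for the 26324 other sets (bars upwards) and the 2103 sets of the second arrangement (bars downwards), with the 6 places that define a set as thin lines. The place 21 bases before place 1 is the only one of those drawn that is listed in most sets of both, at 86.8% and 96.0%.

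Beyond the 6 places, which every set has by the rule, the 2 arrangements had the CpG at 21 bases in common. That CpG was listed in 96.0% of the second arrangement and 86.8% of the other sets. All 13 places were listed at their exact distances in 647 of its 2103 sets, which were selected by these places. All 16 recurring places, leaving out that at 85 bases, were listed in 347 of all 28427 sets. The median number of CpGs in the 230 bases before place 1 was 14 in both. The median density of listed CpGs in the flanks, counted over 1000 bases on each side, starting beyond 300 bases before and 100 bases after place 1, was 9 per kb for the second arrangement and 10 per kb for the others. The second arrangement made up between 5.81% of the sets on chromosome 19 and 9.62% of those on chromosome 12. None of its sets was among those assigned a shift above, and it made up 37.4% of the 5628 sets without one. Its sets were selected by other places, so this absence describes them and supports nothing further.

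After place 6 a single base stood out. A CpG was listed 4 bases after place 6, that is 57 bases from place 1, in 4235 sets, or 14.9%. The mean over the bases from 58 to 100 was 0.740% per base. The share ranged from 13.5% on chromosome 13 to 16.7% on chromosome 18, and was 12.9% in the second arrangement and 15.1% in the others. Sets with this CpG had the one at 7 bases in 73.1% of cases and those without it in 71.2%, so the places on the other side changed little with it.

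Complete sets were also counted with further CpGs allowed between the 6 places. There were 36172 of these, of which 78.6% had no further CpG and are the sets described above. Another 7249, or 20.04%, had exactly 1, and in 91.4% of those it lay 37 bases from place 1, which is 28 bases after place 3 and 10 bases before place 4. In all, 7051 complete sets, or 19.5%, had a CpG there. The next most frequent base, at 22, had one in 0.652%. The long spacing of 38 bases therefore held a seventh place that is absent from the sets by the rule.

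This seventh place was unevenly distributed. It was listed in 9.69% of the 19129 complete sets with a CpG at 41 bases before place 1 and in 58.1% of the 6614 with one at 40 bases. The rule for consecutive CpGs thus kept 16916 of the former and only 2727 of the latter. Of the second arrangement, 96.0% had a CpG at 40 bases, so its share of 7.40% holds for sets under this rule only.

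**Figure D3:**
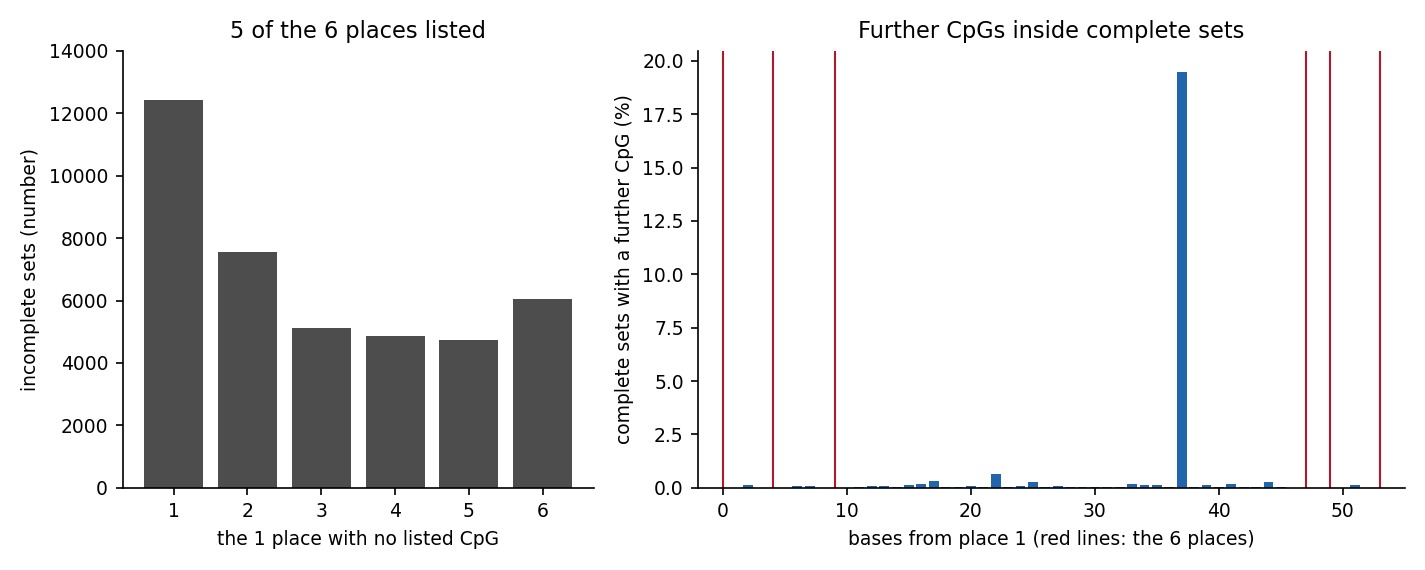
The left panel gives the number of sets in which 5 of the 6 places were listed, by the place that was not, from 4738 for place 5 to 12410 for place 1. The right panel gives the percentage of the 36172 complete sets with a further listed CpG at each base from place 1, where only the base at 37 exceeds 1%.

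Incomplete sets, in which 5 of the 6 places were listed and the sixth was not, numbered 40725, or 1.13 for each complete set. A place is called absent where no CpG was listed. The filters for listing a CpG are not stated, so an absent place need not lack a CpG in the genome. Place 1 was the one most often absent, in 12410 sets or 30.5%, followed by place 2 in 7543 and place 6 in 6048. Places 3, 4 and 5 were absent in 5134, 4852 and 4738 sets. The number for place 1 was 2.62 times that for place 5. With the added condition that no other CpG was listed between the places, the total was 27051, and place 1 was again the one most often absent, in 9584 sets.

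The incomplete sets carried the same near places, at lower shares than the complete consecutive sets and by differing amounts. A CpG 21 bases before place 1 was listed in 75.5% of the sets without place 1 and in 64.1% to 70.6% of the sets without one of the other places, against 87.5% of the complete consecutive sets. At 7 bases the shares were 70.9% without place 1 and 54.4% to 61.2% without another place, against 71.5%. Unlike the complete consecutive sets, these incomplete sets could hold further CpGs between the places. The CpG 37 bases from place 1 was listed in 16.2% of those without place 1 and up to 27.3% of those without another place. It was more frequent in complete sets with a CpG at 40 bases, and only 4.03% of the 2727 consecutive sets with that CpG had one at 7 bases. The 2 kinds of sets are thus not selected alike, and how far this lowers the shares was not tested. In some incomplete sets, a CpG lay 1 base from the absent place. This was so 1 base short of place 6 in 5.95% of the sets without it, 1 base short of place 4 in 5.56%, 1 base beyond place 3 in 4.46% and 1 base short of place 2 in 4.36%.

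Each of the 6 places was more often absent where a CpG was listed at 41 bases than at 40 bases. The difference was widest for place 1. Sets with neither of these CpGs are not part of this comparison. For every 100 complete sets with a CpG at 41 bases there were 27.9 sets without place 1, 19.5 without place 2 and 11.5 to 14.8 without each of the others. With a CpG at 40 bases the corresponding numbers were 8.56 without place 1, 8.48 without place 2 and 9.36 without place 6, with the remaining 3 between 6.08 and 6.501. Complete sets made up 50.3% of all complete and incomplete sets with a CpG at 41 bases and 68.8% of those with one at 40 bases.

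The sets were compared with another recurring run of spacings, 24, 20, 4, 8 and 4 bases, which was found 16059 times on the autosomes. The 6 CpGs of that run have the same spacings as the recurring places at 142, 118, 98, 94, 86 and 82 bases before place 1. Such a run lay within 300 bases of 5684 sets in the same direction, or 19.995% of the sets, and these runs were 35.2% of all such runs. There were 5702 pairs in the same direction and 4 in opposite directions. The run began 142 bases before place 1 in 46.9% of the pairs, and 143, 144 and 141 bases before it in 13.2%, 10.2% and 9.75%. It was present beside 1.28% of the second arrangement and 21.5% of the other sets. The second arrangement was selected by CpGs such as those at 85 and 81 bases, which exclude CpGs at 86 and 82 bases. Its low share therefore follows in part from that selection. Seen from the runs, all 6 places of a set were listed at the exact distance of 142 bases in 18.2% and none of the 6 in 40.8%. A run with a set at another distance, such as 141 or 143 bases, can count among the latter, so 40.8% is not the share of runs without a set.

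The sets were unevenly spread over the chromosomes. Chromosome 19 had 1446 sets, or 22.5 per Mb, chromosome 16 had 18.95 per Mb and chromosome 10 had 16.2 per Mb. Chromosome 8 had the lowest rate, 7.16 per Mb, followed by chromosome 5 with 7.62, so the autosomes differed up to 3.14-fold. CpG density itself differed 1.94-fold. Per 100000 listed CpGs the range was 1.87-fold, from 82.5 sets on chromosome 8 to 154 on chromosome 19. Across the 20 autosomes the rate of sets and CpG density had Pearson's r = 0.96 and Spearman's rho = 0.89. Without chromosomes 16 and 19, which lie farthest from the median density, r was 0.90. These are values of chromosomes of one genome, given without a p-value, and the CpGs of the sets and of their surroundings count in both measures.

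**Figure D4:**
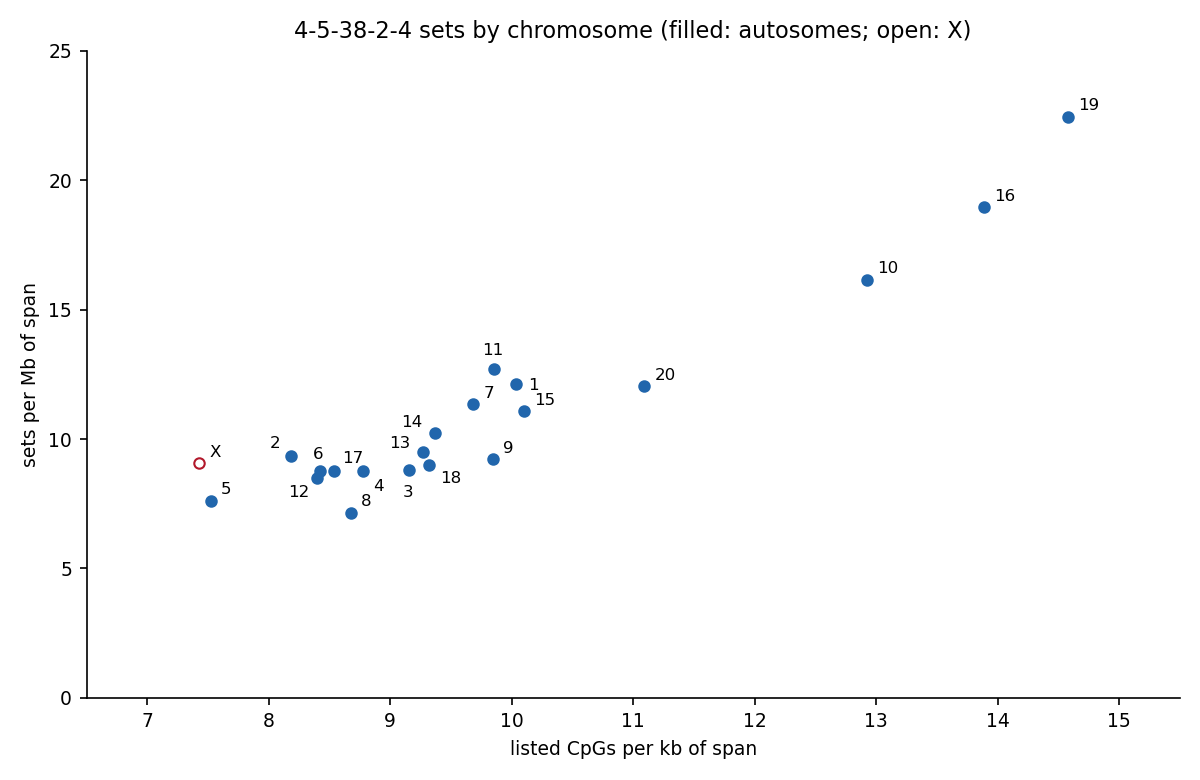
Sets per Mb of span against listed CpGs per kb of span for each of the 20 autosomes (filled) and the X chromosome (open). Chromosomes 19, 16 and 10 have both the highest density of CpGs and the most sets per Mb, 22.5, 18.95 and 16.2.

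The proportion of complete sets varied little between chromosomes, from 44.9% of complete and incomplete sets on chromosome 19 to 49.001% on chromosome 14. Chromosome 19 thus had the most sets per Mb and the lowest share of complete ones. Counting complete and incomplete sets, the range of rates between autosomes was 3.24-fold.

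Windows with more of the other CpGs had more sets, both over all autosomes and within each. In 2596 windows of 1 Mb, other CpGs were counted after leaving out those from 230 bases before to 57 bases after place 1 of each set. CpGs of incomplete sets, and of complete sets with further CpGs between the places, were not left out. Incomplete sets carried the same near places, so the number of sets and that of other CpGs are not independent. The fifth of the windows poorest in other CpGs had a median of 6 sets and the richest a median of 17, with means of 6.499 and 19.8. The 3 classes between had medians of 6, 8 and 10. Per 100000 other CpGs the 5 classes had 114, 96.3, 99.1, 112 and 126 sets, which differ much less and without a steady order. Over the windows of all autosomes Pearson's r was 0.58 and Spearman's rho was 0.52, which include the differences between chromosomes. Within single autosomes r ranged from 0.18 on chromosome 5 to 0.64 on chromosome 15, with a median of 0.51, and rho from 0.15 on chromosome 5 to 0.71 on chromosome 20, with a median of 0.48. On each of the 20 autosomes the windows above that chromosome's median of other CpGs had a higher mean number of sets than the rest, with 8.52 against 6.74 on chromosome 5 and 19.5 against 8.11 on chromosome 20. These are descriptions of neighbouring windows of one genome.

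The ends of the autosomes showed opposite values by the 2 measures. In the outermost 5 Mb on each side there were 14.4 sets per Mb, against 10.2 elsewhere. Per 100000 listed CpGs there were 86.4 sets in these ends and 114 elsewhere.

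The shares of the near places differed little between sets in CpG-poor and CpG-rich flanks. The sets were put in 5 classes by listed CpGs per kb in the flanks, from at most 5.5 per kb in the lowest to at least 17.5 per kb in the highest. The place at 7 bases was listed in 70.7% to 72.0% of the sets in each class, that at 21 bases in 86.9% to 88.02%, and that at 52 bases in 74.3% to 74.97%. The CpG 4 bases after place 6 was listed in 15.3% of the sets in the lowest class and 14.1% in the highest. The mean number of CpGs in the 230 bases before place 1 was 13.5 in the lowest class and 13.4 in the highest.

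Most sets lay outside the densest clusters of CpGs. Tiles of 1 kb with 40 or more CpGs held 5.91% of the sets and 9.04% of all autosomal CpGs. Runs of at least 40 CpGs with no gap over 50 bases held 1.59% of the sets and 5.87% of all autosomal CpGs. With 500 base tiles and a limit of 20 CpGs the share of the sets was 48.6%, against 13.6% of all autosomal CpGs. A set with its 14 CpGs before place 1 reaches that limit by itself, so the smaller tile does not describe its surroundings.

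Neighbouring sets were a median of 42.6 kb apart, with quartiles of 14.6 and 114 kb. Another set lay within 10 kb of 31.6% of the sets. Of the 26538 windows of 100 kb with a listed CpG, 12020 had no set, the median was 1 and the mean 1.07. The 953 windows with 5 or more sets were 3.59% of the windows and held 20.8% of the sets. The window with the most sets was on chromosome 1 from base 134100001 to 134200000, with 18. The next were on chromosome 2 from base 87000001 to 87100000, with 15, and on chromosome 11 from base 53700001 to 53800000, with 14. The longest stretch without a set was 10.9 Mb on chromosome 20, from base 33534859 to 44426977. Of this stretch 10.2 Mb, from base 34254548 to 44407540, had no listed CpG at all, and the remaining 0.739 Mb held 828 listed CpGs. All positions are as deposited, in a genome build that neither labels nor file state.

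Neighbours under 1000 bases apart mostly had the same direction. Of all 28407 neighbouring pairs, 51.8% had the same direction. This share was 77.9% in the 533 pairs under 1000 bases apart and 94.3% in the 229 pairs under 500 bases apart. A pair of distances was more frequent than those beside them. Between 100 and 149 bases apart there were 34 pairs, all in the same direction, against 1 in the 50 bases below and 3 in the 50 bases above. Between 300 and 349 bases apart there were 87 pairs in the same direction and 1 in opposite directions, against 31 and 4 between 250 and 299 bases. The closest pair in the same direction was 93 bases apart on chromosome 16, from base 3599324 to 3599470. The closest in opposite directions was 196 bases apart on chromosome 11, from base 50361276 to 50361525.

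**Figure D5:**
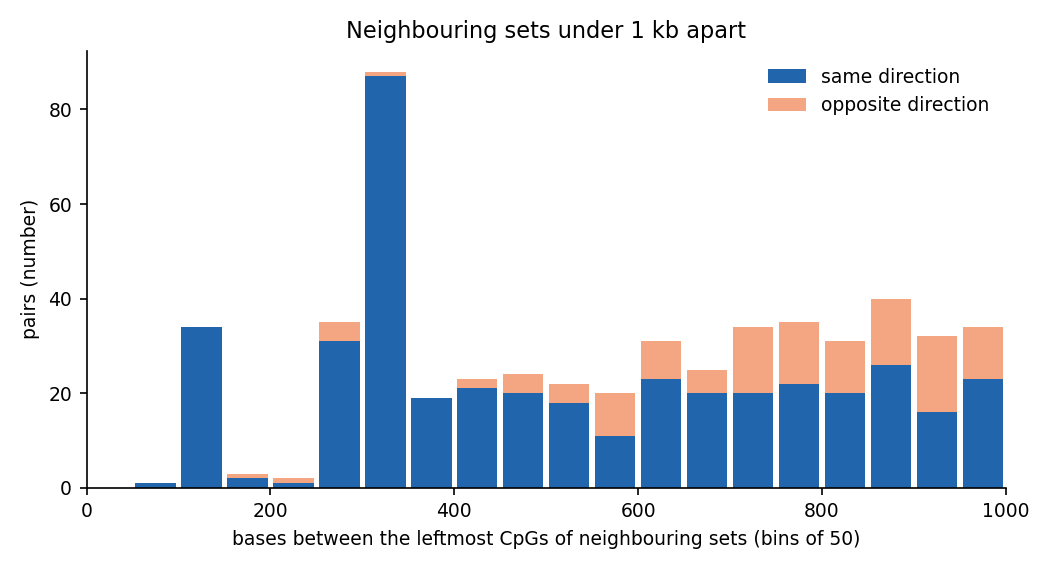
Number of neighbouring pairs of sets under 1000 bases apart, by distance between their leftmost CpGs in bins of 50 bases, in the same direction (lower part of each bar) and in opposite directions (upper part). Pairs in the same direction peak at 300 to 349 bases, with 87, and at 100 to 149 bases, with 34.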

How the data were processed

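The authors deposited a single table of positions and values without a header line. The submitters' processing notes name Bismark, which aligns bisulfite reads and calls methylation. Its version, the genome build and site filters are stated in none of the labels or file headers. Only chromosome, start and end were read. The 12 unnamed columns of values per position were not used, so the comparison of 3 high rank and 3 low rank animals, planned only if columns carried names, was not made. Depth per animal is therefore not reported. The table was split at white space and held 26958235 positions, each 1 base wide and in rising order. Positions are 1-based. Sets were found from the spacings alone with Python 3.11.15, numpy 2.4.6, pandas 2.3.3 and scipy 1.17.1, and all shares are of complete counts. The search was tested on simulated positions, where the 4 planted counts were recovered to within 3. The rule for named places and regions was a share of at least 20% for places, and the extremes for windows, pairs and chromosomes. Windows of 1 Mb needed 800 tiles of 1 kb with a listed CpG. The sets and all comparisons were chosen with earlier results of these data known.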

Additional observations from a re-analysis of the deposited data

How the results depend on the processing

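The number of sets stayed within 1.5 times 28427 in all 4 alternatives. It was 29830 with the X chromosome and the unplaced sequence, 28660 with the 38 base spacing free by 1 base, 29059 with any one spacing free by 1 base and 36172 with further CpGs allowed. The ratio of the highest to the lowest autosome, 3.14, was 1.87 per 100000 listed CpGs, 3.78 per Mb of tiles with a listed CpG and 2.65 without chromosome 19. The share of sets with another within 10 kb, 31.6%, was 18.2% within 5 kb and 48.97% within 20 kb, as it must fall and rise with the distance. The share in dense tiles, 5.91%, was 48.6% in 500 base tiles, 6.31% in 1 kb centred on the set and 5.70% in shifted tiles. Incomplete sets numbered 40725, and 27051 with no other CpG inside, which is a narrower count by construction. The mean share over the 17 recurring places, 40.2%, was 40.03% and 40.3% in the 2 directions and 40.1% without chromosome 19, and no single place moved by more than 0.526 percentage points in these settings. The share of sets beside a run of 24, 20, 4, 8 and 4 bases was 20.2% with 24 free by 1 base. Alternatives chosen after seeing the data put 2335, 2024, 2727 and 2100 sets in the second arrangement, for 3 or more places, 9 or more places, a CpG at 40 bases and a CpG at 69 bases. No paired analysis was possible because no column of values could be tied to an animal, and leaving out single animals was not run for the same reason.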

Other observations

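The X chromosome, left out of the sets above, held 1394 sets, or 9.06 per Mb. Per 100000 listed CpGs it had 122, against 110.2 on the autosomes. Complete sets were 50.6% of complete and incomplete sets on the X chromosome, above the range of 44.9% to 49.001% over the 20 autosomes. The difference was not tested, since the X chromosome is a single chromosome. The unplaced sequence held 9 sets.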
